A study of Mus musculus with 8 samples.

Results

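The genes of core spliceosome proteins and of the main families of splicing regulators were followed in leukaemic marrow cells of mice, with and without knockdown of Fubp1. Members were all genes whose symbol begins with Hnrnp, U2af or Snrp, or with Srsf, Sf3a or Sf3b and a digit, less 4 names that carry -ps. No measured value entered this rule on names, although it was set with earlier results of these data known. This gave 57 of the 47729 rows of the deposited table, with 56 symbols, because U2af1l4 stands on 2 Ensembl identifiers. They fall into 13 genes named for proteins of the small nuclear ribonucleoproteins (snRNPs), 13 genes of U2AF and SF3, 11 genes of SR proteins and 20 genes of hnRNPs.

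Introns are removed by the spliceosome, which is built from snRNPs, each a small nuclear RNA bound by a ring of Sm proteins and by particle-specific proteins. The U1 snRNP recognises the start of an intron, U2AF binds the pyrimidine tract and the end of the intron, and the U2 snRNP with its SF3a and SF3b complexes takes hold of the branch point. SR proteins bind mostly in exons and favour their inclusion, while hnRNPs coat nascent RNA and often act against it. SRSF2, SF3B1 and U2AF1 are mutated in human myeloid neoplasms. FUBP1 binds single-stranded nucleic acid, is known as a regulator of Myc transcription and has also been tied to splicing, and PUF60, its partner at Myc, is a relative of U2AF2.

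All mice were C57BL/6. Donor marrow came from animals given 5-fluorouracil and was transduced with a retrovirus for BCR-ABL1, the oncogenic tyrosine kinase that drives this leukaemia, marked by RFP (MSCV-IRES-RFP), together with a lentivirus (pLKO.1-Venus). That lentivirus carried an shRNA against Fubp1 in 4 mice and a scrambled shRNA in 4 others, so both groups carried BCR-ABL1, both vectors and the irradiation of the recipient with 900 cGy. Per the labels, marrow cells without lineage markers that were RFP+, Venus+ and DAPI- were sorted, and stranded total RNA libraries were each made from 500 ng. Cells of the host without the vectors should be outside the gate, and no group without BCR-ABL1 was analysed here. The ages of the mice and the shRNA sequence are not used here.

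The libraries held 22465303 to 44761356 counts. Fubp1 itself measured 281, 228, 220 and 239 CPM (counts scaled to a common library size) in knockdown replicates 1 to 4, against 296, 284, 291 and 396 CPM in scrambled replicates 1 to 4. The groups did not overlap (exact two-sided permutation p = 0.0286, the smallest that 4 against 4 libraries can give), and the log2 fold change was -0.39 (SE 0.12, edgeR adjusted p = 0.0604). On the first principal component of all tested genes, which held 61.1% of the variance, knockdown replicate 3 lay on the side of the scrambled libraries. Summed CPM of 8 early granulocyte markers was 86.9 to 3665 in knockdown libraries and 36.0 to 336 in scrambled libraries, and the sum of 8 megakaryocyte markers was 132 to 213 and 68.4 to 86.4 CPM in the same order. Erythroid markers, 15 genes, summed to 7451 to 11855 CPM in knockdown libraries and 9384 to 10469 CPM in scrambled libraries. That sum covers genes that went both ways. At an edgeR adjusted p under 0.05, 3 of the 15 were higher and 5 lower, beside 8.02% and 7.29% of all tested genes. The sum of 9 monocyte and macrophage markers was 4.00 to 133 CPM in knockdown and 0.583 to 6.40 CPM in scrambled libraries, and that of 8 stromal and endothelial markers was 731 CPM in knockdown replicate 1, 21.3 to 42.3 CPM in the other 3 knockdown libraries and 43.5 to 57.8 CPM in scrambled libraries. The 8 markers of T and NK cells summed to 29.2, 19.1, 2.06 and 86.9 CPM in knockdown replicates 1 to 4, against 1.83 to 8.18 CPM in scrambled libraries, with Cd3e at 0 in all 8. The 8 B cell markers summed to 0.539 to 4.07 CPM in knockdown and 0.225 to 1.09 CPM in scrambled libraries, with Ms4a1 at 0 in all 8. The part of such cell mixture in the results below was not tested.

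Splicing factor genes as a group differed little between the groups. The members took 1.72 to 1.77% of all counts in knockdown libraries and 1.72 to 1.81% in scrambled libraries. Of the 57, 55 passed the filter on low counts, and 54 of these 55 had a log2 fold change between -0.3 and 0.3, as did 63.4% of the 13462 tested genes and 79.1% of the 7576 tested genes with a mean log2 CPM of at least 4. For 52 of the 55 the whole 95% interval lay between -0.5 and 0.5, against 74.7% of those abundant genes; the exceptions were Snrpn and both U2af1l4 rows, each at a few CPM. In bulk RNA, fewer cells of a type and less RNA of a gene per cell cannot be told apart.

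At an adjusted p under 0.05 in edgeR's quasi-likelihood test, 5 of the 55 members were lower in the knockdown and 0 were higher. The 5 were Snrpg, Snrpe and Snrpb2 of the snRNPs, and Sf3b3 and Sf3a3 of the SF3 complexes. Their share, 9.09%, stood beside 7.29% of all tested genes called lower and 11.0% of the abundant ones, so it was near the background. No member was among the 8.02% of tested genes called higher. At an unadjusted p under 0.05, 14 of the 55 members were lower and 1 was higher, against 15.5% and 18% of tested genes. Of the 7576 abundant genes, 1714 were lower and 968 higher at that level. DESeq2 called 11 members lower and limma-voom 4, and neither called a member higher.

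Of the 55 members, 40 had a fitted change below 0, and the median was -0.06 on the log2 scale. Over all tested genes the median was 0.00120, and over the abundant genes, of which 61.3% were below 0, it was -0.05. In 12 of the 55 members the highest knockdown library was below the lowest scrambled one. The same held for 11.1% of tested genes and for 1211 of the 7576 abundant ones. Sf3b1 was the single member with the groups apart in the other direction, against 9.54% of tested genes and 605 of the 7576 abundant ones. By role, the median log2 fold change was -0.14 over 12 tested snRNP genes, -0.06 over 13 U2AF and SF3 genes, 0.01 over 10 SR genes and -0.07 over 20 hnRNP genes. The difference between roles was not tested.

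**Figure D1:**
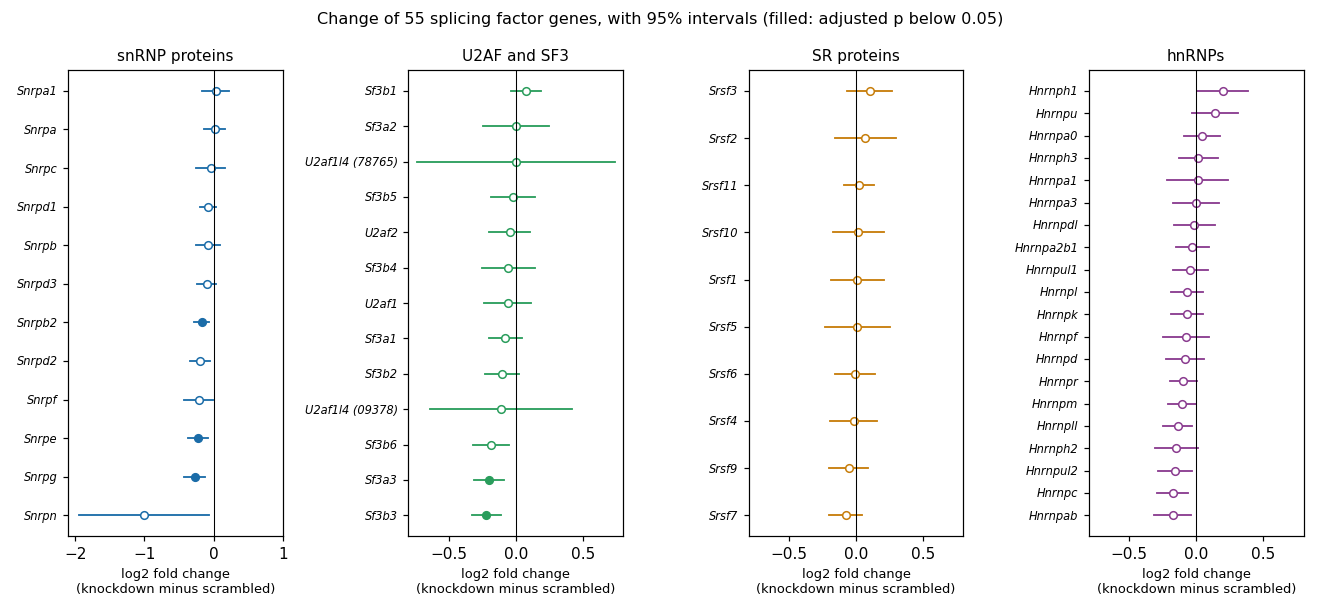
Log2 fold change of the 55 tested members (knockdown minus scrambled, x axis) with 95% intervals, in 1 panel per role; filled points passed an adjusted p of 0.05, and the snRNP panel has a wider axis than the other 3. The 5 filled points lie between -0.28 and -0.18, and only Snrpn, at -1.01 with a wide interval, lies outside -0.3 to 0.3.

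Summed over the tested members of a role, expression of the snRNP genes was 1503, 1494, 1513 and 1350 CPM in knockdown replicates 1 to 4 and 1573, 1563, 1496 and 1645 CPM in scrambled replicates 1 to 4. These sums overlapped narrowly. The hnRNP genes summed to 9309 ± 227 CPM in knockdown libraries and 9690 ± 53.5 CPM in scrambled libraries (SD, n = 4 each), with every knockdown library below every scrambled one. That separation was absent without TMM scaling. As a share of raw counts the hnRNP genes took 0.960, 0.926, 0.924 and 0.957% in knockdown replicates 1 to 4 and 0.944, 0.959, 0.962 and 0.959% in scrambled replicates 1 to 4, which overlap. The U2AF and SF3 genes summed to 3525 ± 154 CPM in the knockdown and 3738 ± 98.4 CPM in the scrambled group, and the SR genes to 2835 ± 123 and 2808 ± 202 CPM in the same order. Both of these last pairs of ranges overlapped.

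**Figure D2:**
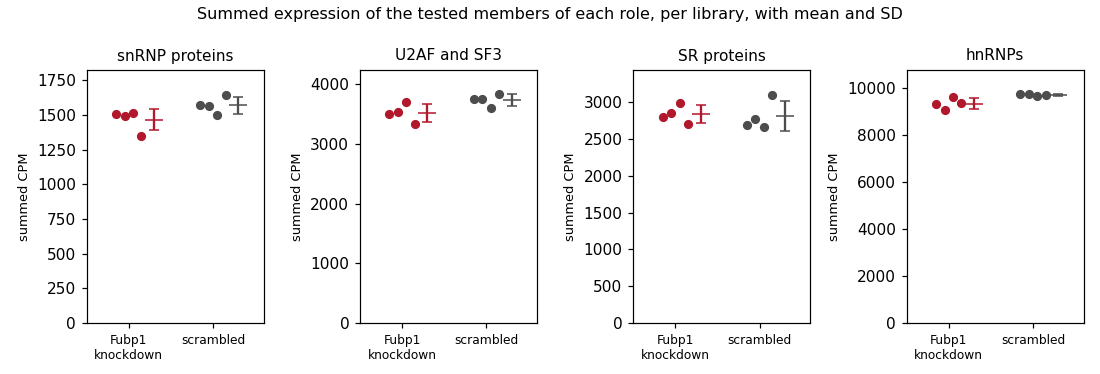
Summed CPM of the tested members of each role in each library (points, y axis from 0), with mean and SD beside the points; the Fubp1 knockdown group is left of the scrambled group. The groups are apart for the hnRNP genes (at most 9584 CPM in the knockdown and at least 9618 CPM in scrambled libraries) with TMM scaling but not as a share of raw counts, and overlap for the other 3 roles.

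Among the snRNP genes, 3 of 12 tested members were lower and 0 higher, beside 7.29% of all tested genes and 11.0% of the abundant ones called lower. So small a count was not tested against that background. Snrpg encodes SmG of the Sm ring (ENSMUSG00000057278, chromosome 6 from 86371304 to 86379328, plus strand, GRCm38). It measured 39.6, 42.3, 46.9 and 40.7 CPM in knockdown replicates 1 to 4, against 51.8, 51.4, 50.4 and 51.4 CPM in scrambled replicates 1 to 4. The scrambled libraries were close together and every knockdown library lay below them. The knockdown level was 82.6% of the scrambled level (log2 fold change -0.28, SE 0.07, adjusted p = 0.0287).

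Snrpe encodes SmE of the same ring (ENSMUSG00000090553, chromosome 1 from 133603871 to 133610291, minus strand). Its values were 88.7, 88.7, 102 and 93.9 CPM in knockdown replicates 1 to 4 and 107, 110, 114 and 106 CPM in scrambled replicates 1 to 4. The groups did not overlap, although knockdown replicate 3 came near the lowest scrambled library. The log2 fold change was -0.23 (SE 0.06, adjusted p = 0.0418). Snrpert, a processed copy of Snrpe, failed the filter at 0.218 to 0.322 CPM in knockdown and 0.180 to 0.369 CPM in scrambled libraries.

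Snrpb2 encodes the U2B″ protein that binds U2 snRNA together with the Snrpa1 product (ENSMUSG00000008333, chromosome 2 from 143063039 to 143072853, plus strand). Knockdown replicates 1 to 4 had 89.8, 86.9, 84.3 and 86.8 CPM, against 96.7, 96.6, 96.8 and 103 CPM in scrambled replicates 1 to 4. Again no library of 1 group reached the range of the other (log2 fold change -0.18, SE 0.05, adjusted p = 0.0470). Its partner Snrpa1 had 142 ± 10.6 CPM in the knockdown and 139 ± 15.7 CPM in the scrambled group (SD, n = 4 each; log2 fold change 0.03, adjusted p = 0.866).

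The other Sm genes did not pass the threshold. Snrpd2 (SmD2) had 84.9, 79.7, 79.3 and 71.5 CPM in knockdown replicates 1 to 4 and 92.5, 92.3, 91.4 and 86.1 CPM in scrambled replicates 1 to 4. These groups did not overlap, at an adjusted p of 0.0657. Snrpf (SmF) measured 22.8 ± 2.30 CPM in the knockdown and 26.5 ± 1.71 CPM in the scrambled group (log2 fold change -0.22, adjusted p = 0.143). On the opposite strand, exons of Ccdc38 cover 65.9% of the exon length of Snrpf and those of 4933408J17Rik 19.5%. Without a stated strand setting those reads cannot be told apart, so the Snrpf values are uncertain. Of the remaining ring genes, Snrpb (SmB) had a log2 fold change of -0.08, Snrpd1 (SmD1) one of -0.08 and Snrpd3 (SmD3) one of -0.10, with adjusted p-values of 0.483, 0.277 and 0.278. All 7 genes of the ring were thus fitted below 0, and 2 of the 7 passed. Among the abundant genes, 61.3% were fitted below 0 and 11.0% were called lower.

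The genes of U1-specific proteins stood close to 0. Snrpa, which encodes the A protein of the U1 snRNP, had 116 ± 6.59 CPM in the knockdown and 115 ± 7.34 CPM in the scrambled group (SD, n = 4 each; log2 fold change 0.01, 95% interval -0.14 to 0.16). Its sign turned when single libraries were left out, over a range of -0.04 to 0.05. Snrpc, which encodes its C protein, had 36.9 ± 3.52 and 38.0 ± 2.94 CPM in the same order (log2 fold change -0.04, 95% interval -0.25 to 0.16, and 0.02 without knockdown replicate 4).

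Snrpn, an imprinted gene known from brain that encodes a relative of SmB, had the lowest fitted change of the members. It measured 1.01, 1.92, 1.08 and 2.96 CPM in knockdown replicates 1 to 4, against 5.38, 3.94, 2.23 and 2.56 CPM in scrambled replicates 1 to 4. The groups overlapped through knockdown replicate 4. The log2 fold change was -1.01 with an SE of 0.42 and an adjusted p of 0.125, and it rested on 718 reads over 8 libraries. Its exons share 589 bases with Gm38393 and 216 bases with Snurf, both on the same strand, so the authors' counting could have split or dropped reads there.

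Among the U2AF and SF3 genes, 2 of 13 were lower and 0 higher, both of the 2 being SF3 subunits. This count stood beside 7.29% of all tested genes and 11.0% of the abundant ones called lower, and was not tested against them. Sf3b3 encodes the large scaffold subunit of SF3b that holds the branch point subunit Sf3b1 (ENSMUSG00000033732, chromosome 8 from 110810239 to 110846787, minus strand). It measured 751, 751, 802 and 728 CPM in knockdown replicates 1 to 4 and 883, 906, 857 and 886 CPM in scrambled replicates 1 to 4. The groups were well apart. The knockdown level was 85.9% of the scrambled level (log2 fold change -0.22, SE 0.05, adjusted p = 0.0223, the smallest of any member).

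Sf3a3 encodes the SF3a subunit that links SF3a to the U2 particle (ENSMUSG00000028902, chromosome 4 from 124714776 to 124732460, plus strand). Knockdown replicates 1 to 4 had 174, 178, 183 and 166 CPM, against 197, 204, 201 and 204 CPM in scrambled replicates 1 to 4. Again no knockdown library reached a scrambled one (log2 fold change -0.20, SE 0.05, adjusted p = 0.0299). Its partners in SF3a were not called, with Sf3a1 at a log2 fold change of -0.08 (adjusted p = 0.346) and Sf3a2 at 0.00207 (adjusted p = 0.992).

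Sf3b1, whose product contacts the branch point, went the other way from Sf3b3. It measured 712, 714, 792 and 732 CPM in knockdown replicates 1 to 4, against 699, 710, 692 and 699 CPM in scrambled replicates 1 to 4. Every knockdown library lay above every scrambled one, some by little. The log2 fold change was 0.08 (SE 0.05, adjusted p = 0.330), so no change was shown.

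The remaining SF3b subunits had small fitted values. Sf3b6, whose product lies near the branch point, had 111 ± 4.37 CPM in the knockdown and 126 ± 7.15 CPM in the scrambled group, without overlap (log2 fold change -0.18, adjusted p = 0.0684). Sf3b2, Sf3b4 and Sf3b5 had log2 fold changes of -0.10, -0.06 and -0.02, with adjusted p-values of 0.223, 0.707 and 0.866. Phf5a, an SF3b subunit outside the name pattern, was called lower (146 ± 13.5 CPM in the knockdown and 178 ± 5.46 CPM in the scrambled group, log2 fold change -0.28, adjusted p = 0.0305, and 0.0568 to 0.0868 without knockdown replicate 1 or 2 or scrambled replicate 1, 2 or 3). The 7 genes of the SF3b complex were therefore fitted below 0 with the exception of Sf3b1, and 2 of the 7 passed. The shares among the abundant genes were 61.3% fitted below 0 and 11.0% called lower.

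U2af1, which encodes the small U2AF subunit that reads the end of the intron, had 37.8, 42.7, 45.3 and 38.5 CPM in knockdown replicates 1 to 4 and 39.7, 43.2, 43.5 and 45.1 CPM in scrambled replicates 1 to 4. The groups overlapped throughout (log2 fold change -0.06, 95% interval -0.24 to 0.12, adjusted p = 0.634). U2af2, the large subunit that binds the pyrimidine tract, had 327 ± 20.9 CPM in the knockdown and 338 ± 23.5 CPM in the scrambled group (log2 fold change -0.05, adjusted p = 0.680). Puf60, its relative, measured 212 ± 9.02 and 228 ± 4.17 CPM in the same order (log2 fold change -0.11, adjusted p = 0.161). The 2 rows of U2af1l4, a minor relative of U2af1, had means of 1.08 and 3.76 CPM in the knockdown and 1.08 and 4.06 CPM in the scrambled group. Their exons share 1086 bases on the same strand, 65.6% of the exon length of the first and 33.6% of the second. Reads from that part cannot be told apart. The second row, named Gm49396 in GENCODE M21, also shares 1268 bases with Igflr1 on the same strand.

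**Figure D3:**
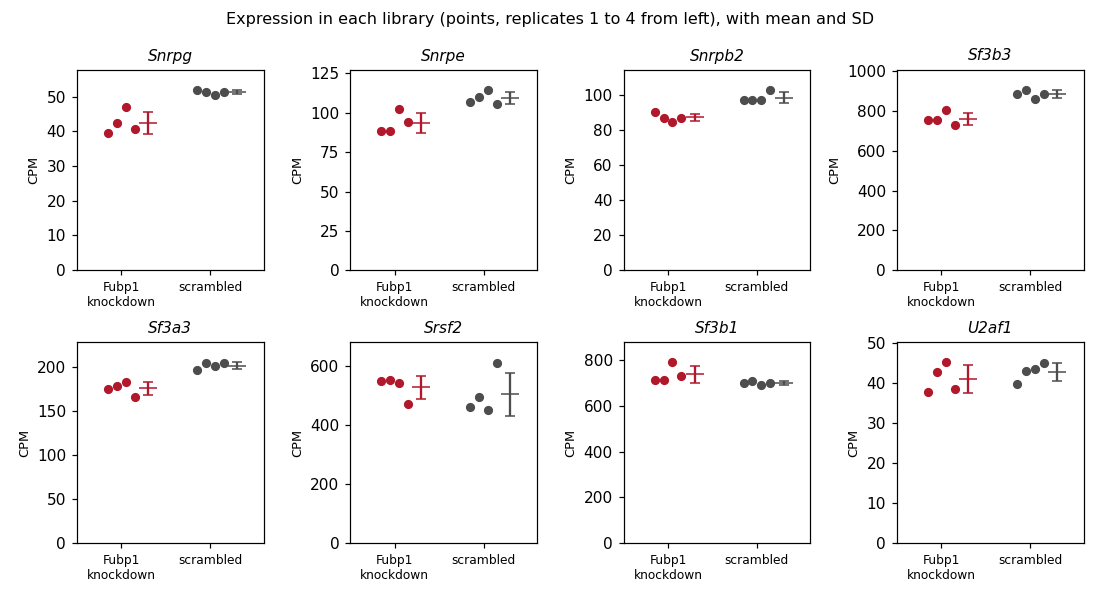
CPM of 8 members in each library (points, replicates 1 to 4 from left, y axes from 0), with mean and SD; the Fubp1 knockdown group is left of the scrambled group. Snrpg, Snrpe, Snrpb2, Sf3b3 and Sf3a3 are lower in every knockdown library than in every scrambled one, while Srsf2 and U2af1 overlap and Sf3b1 spans 712 to 792 CPM in the knockdown and 692 to 710 CPM in scrambled libraries.

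The promoter sequences of the members called lower are shown because these genes were called in the same direction, from the RefSeq promoter table (GRCm38.p6). Each is the longest stretch outside annotated exons within the 250 bases before the RefSeq start, 5′ to 3′ on the strand of the gene, with capitals for letters of the motifs searched. The stretches are chr4:124714611-124714775 (plus strand) for Sf3a3, chr8:110846813-110847023 (minus strand) for Sf3b3, chr2:143062819-143063038 (plus strand) for Snrpb2 and chr1:133610292-133610410 (minus strand) for Snrpe.
Sf3a3: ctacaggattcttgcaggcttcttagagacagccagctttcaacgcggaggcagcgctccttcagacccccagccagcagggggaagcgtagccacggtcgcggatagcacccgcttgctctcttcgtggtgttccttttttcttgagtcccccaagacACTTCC
Sf3b3: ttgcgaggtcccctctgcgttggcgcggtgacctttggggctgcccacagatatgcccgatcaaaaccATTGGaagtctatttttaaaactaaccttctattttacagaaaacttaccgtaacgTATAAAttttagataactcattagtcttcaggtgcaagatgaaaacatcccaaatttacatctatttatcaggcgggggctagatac
Snrpb2: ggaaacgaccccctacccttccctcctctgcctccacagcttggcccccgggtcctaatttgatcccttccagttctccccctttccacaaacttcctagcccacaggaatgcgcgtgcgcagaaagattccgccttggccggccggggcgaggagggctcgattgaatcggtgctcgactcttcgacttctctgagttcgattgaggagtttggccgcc
Snrpe: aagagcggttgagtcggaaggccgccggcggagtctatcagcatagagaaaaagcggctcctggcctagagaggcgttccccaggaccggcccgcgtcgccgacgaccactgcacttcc
For Snrpg only 14 bases of the window lay outside annotated exons, and none are printed. The capitals in Sf3a3 are the first 6 letters of a match to ACTTCCGG that runs into the first exon, and those in Sf3b3 are ATTGG and TATAAA. No searched motif fell within the stretches of Snrpb2 and Snrpe. The window of Sf3b3 also holds exon bases of Cog4, a gene on the opposite strand, which the printed stretch leaves out.

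The motifs were searched on both strands of the 250 bases, for 48 of the 56 member symbols and for 27025 genes of the table; apart from the longer and shorter NRF1 forms, no motif holds another. CCGGAAGT, a core bound by ETS factors, was found in 12.5% of member promoters and 2.93% of all; the 6 members were Hnrnpd, Hnrnpf, Sf3a3, Sf3b2, Srsf4 and Srsf5. CCAAT was found in 45.8% of member promoters and 34.5% of all, TATAAA in 10.4% and 12.97%, and the E-box CACGTG, which MYC and MAX bind, in 6.25% and 6.05%. CGCATGCG, the core of the NRF1 palindrome, was found in 6.25% and 1.58%, and with a further G before and C after it in 0% and 0.781%. The median GC content was 60.6% in member promoters and 52% in all, and these shares were not tested. Of the 6 members with the ETS core, Sf3a3 alone was called lower.

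None of the 10 tested SR genes was called. Of all tested genes 7.29% were called lower and 8.02% higher, and of the abundant ones 11.0% and 6.09%. So small a set was not tested against those shares. Srsf2, whose product binds exonic enhancers, had 549, 555, 543 and 471 CPM in knockdown replicates 1 to 4, against 463, 495, 453 and 610 CPM in scrambled replicates 1 to 4. In each group the fourth library stood apart from the other 3, low in the knockdown and high among the scrambled libraries. The log2 fold change was 0.07 (SE 0.10, 95% interval -0.16 to 0.30, adjusted p = 0.683). Exons of Mettl23 on the opposite strand cover 15.6% of the exon length of Srsf2, and without a stated strand setting those reads cannot be told apart.

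Srsf3, the smallest SR protein, had the highest fitted value of the SR genes, with 306 ± 25.1 CPM in the knockdown and 285 ± 18.4 CPM in the scrambled group (SD, n = 4 each; log2 fold change 0.10, adjusted p = 0.371). Srsf7, which like Srsf3 also works in RNA export, had the lowest, with 357 ± 6.93 CPM in the knockdown and 377 ± 22.7 CPM in the scrambled group (log2 fold change -0.08, adjusted p = 0.371). Srsf1, the founding member of the family, was at 37.8 ± 2.42 and 37.5 ± 3.81 CPM in the same order. Its log2 fold change was 0.01 with a 95% interval of -0.19 to 0.21. Srsf5 was at 328 ± 45.2 CPM in the knockdown and 326 ± 29.4 CPM in the scrambled group, a log2 fold change of 0.00992 with an interval of -0.23 to 0.25. The signs of Srsf1 and Srsf5 turned when single libraries were left out. Srsf12 failed the filter, with 8 reads in all.

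None of the 20 hnRNP genes was called, beside 7.29% of all tested genes called lower and 8.02% called higher. Of the abundant genes, 11.0% were called lower and 6.09% higher, and the count was not tested against these shares. Of the 20, 15 were fitted below 0, as were 49.8% of all tested genes and 61.3% of the abundant ones. Hnrnpc, whose product packages nascent RNA and binds uridine tracts, came nearest to the threshold. It measured 424, 435, 475 and 435 CPM in knockdown replicates 1 to 4, against 514, 503, 493 and 487 CPM in scrambled replicates 1 to 4. The groups did not overlap, and the log2 fold change was -0.18 (SE 0.05, adjusted p = 0.0504). It passed with size factors of the RLE type (adjusted p = 0.0480), with DESeq2 (0.0126), without knockdown replicate 3 (0.0133) and without scrambled replicate 4 (0.0444).

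Of the other hnRNP genes, Hnrnpab, Hnrnpll, Hnrnpm and Hnrnpr also had every knockdown library below every scrambled one, with adjusted p-values of 0.0790, 0.0772, 0.144 and 0.166. Hnrnpll, known as the factor that switches Cd45 splicing in lymphocytes, had 176, 168, 177 and 182 CPM in knockdown replicates 1 to 4 and 191, 200, 190 and 194 CPM in scrambled replicates 1 to 4. Its log2 fold change was -0.14 (SE 0.05). Hnrnpab had the lowest fitted value of the family, -0.18, from 947 ± 55.6 CPM in the knockdown and 1070 ± 53.3 CPM in the scrambled group. Exons of Phykpl on the opposite strand cover 29.1% of its exon length.

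Hnrnph1, which binds runs of guanines, had the highest fitted value of all members. It measured 634, 631, 578 and 580 CPM in knockdown replicates 1 to 4, against 466, 521, 511 and 614 CPM in scrambled replicates 1 to 4. Scrambled replicate 4 lay within the knockdown range and the other 3 scrambled libraries below it. The log2 fold change was 0.20 (SE 0.08, adjusted p = 0.137), and without scrambled replicate 4 it was 0.26 (adjusted p = 0.0449). Its close relative Hnrnph2 had 80.5 ± 5.05 CPM in the knockdown and 89.2 ± 6.22 CPM in the scrambled group (log2 fold change -0.15, adjusted p = 0.180). Hnrnpu, a nuclear scaffold protein, had 142, 144, 154 and 178 CPM in knockdown replicates 1 to 4 and 135, 142, 138 and 146 CPM in scrambled replicates 1 to 4. Those groups overlapped, with a log2 fold change of 0.14 and an adjusted p of 0.233.

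Hnrnpa2b1, a reader of RNA export and sorting signals, had the highest CPM of the members, with 2210.1, 2121, 2264 and 2359 CPM in knockdown replicates 1 to 4 and 2345, 2328, 2338 and 2132 CPM in scrambled replicates 1 to 4. The fourth library again stood apart, here low among the scrambled ones. The log2 fold change was -0.03 (SE 0.05, 95% interval -0.15 to 0.09). Hnrnpk, which binds runs of cytosines, had 438 ± 21.6 CPM in the knockdown and 459 ± 16.2 CPM in the scrambled group (log2 fold change -0.07, adjusted p = 0.421). Hnrnpa1, the best studied of the family, was at 54.3 ± 3.17 and 53.9 ± 7.59 CPM in the same order (log2 fold change 0.01, 95% interval -0.22 to 0.24), and its sign turned when single libraries were left out.

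Per kilobase of annotated exon, the scale on which levels of different genes can be set side by side, Hnrnpab had the highest mean level, 341 CPM per kilobase in the knockdown and 385 in the scrambled group. Hnrnpa2b1 followed at 340 and 347, Snrpb at 258 and 273, Hnrnpa0 at 207 and 201 and Srsf2 at 179 and 171 CPM per kilobase, in the same order of groups. At the low end of the tested members were U2af1l4 at 0.653 and 0.654 and Snrpn at 0.806 and 1.63 CPM per kilobase. The genes of the Sm ring spanned 26.4 to 258 CPM per kilobase in the knockdown and 30.7 to 273 in the scrambled group, although their proteins join the ring in equal numbers. Such levels depend on the annotated exon length and on how reads of copies and of overlapping genes were counted. The low end of the ring is Snrpf, most of whose exon length overlaps a gene on the opposite strand.

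Many members have near-identical copies elsewhere in the genome. A copy matching at least 95% of letters over at least 50% of the coding sequence was found for 22 of 55 members, with 21 copies for Hnrnpa3, 8 for Hnrnpa1 and 6 for Hnrnpf, so the levels of these 3 are uncertain. Copies of Hnrnpa1 summed to 1.05 CPM in the knockdown and 0.890 CPM in the scrambled group. The single counted copy of Snrpg had 1.42 ± 0.356 CPM in the knockdown and 2.01 ± 0.436 CPM in the scrambled group, and that of Snrpe had 0.256 and 0.264 CPM in the same order. For Snrpb2, Sf3b3 and Sf3a3 no such copy was found. Exons of 21 members overlap a gene on the opposite strand; among the 5 called genes this touched only Sf3b3, where Cog4 covers 1.72% of the exon length.

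**Figure D4:**
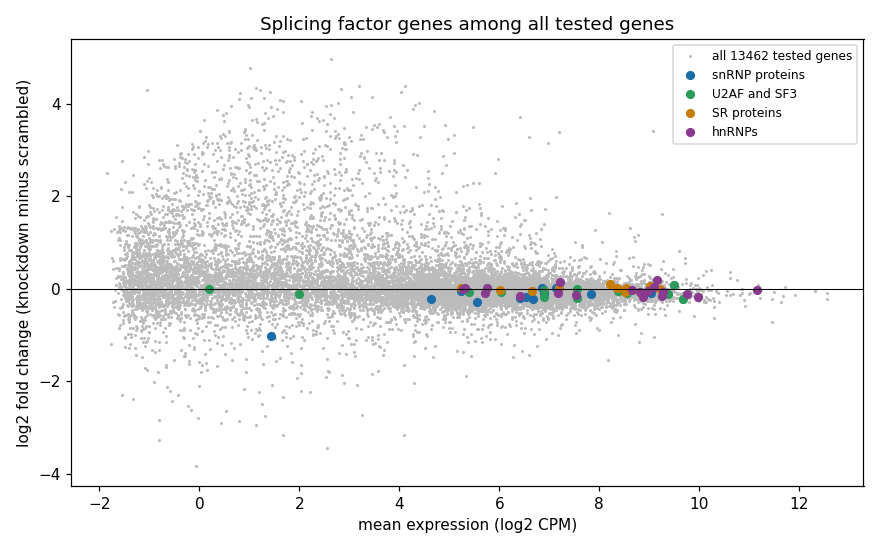
Log2 fold change (knockdown minus scrambled, y axis) against mean expression (log2 CPM, x axis) for all 13462 tested genes (grey) and the members in colour by role. Most members sit at high expression in a narrow band around 0, with Snrpn at -1.01 the single member outside it.

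The spread between mice was small for these genes. The median coefficient of variation over the tested members was 5.87% in knockdown libraries and 5.57% in scrambled libraries, against 13.2% and 11.0% over all tested genes. Over the abundant genes, a nearer comparison, it was 8.93% and 7.01%. Single libraries nevertheless held the extreme value for many members. Among the 52 abundant members, knockdown replicate 4 was the lowest of all 8 libraries for 21 and scrambled replicate 4 the highest for 19. Such counts were not made over all abundant genes, so they have no background here. Scrambled replicate 4 had the lowest total count and knockdown replicate 4 the highest, and knockdown replicate 4 also had the highest early granulocyte sum, 3665 CPM. A link between these features and the values of the members was not tested. Without knockdown replicate 4, 2 members were called lower, and without scrambled replicate 4, 7 were.

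No called member kept its call in each of the 8 fits that left out 1 library. Without knockdown replicate 1, or scrambled replicate 1, 2 or 3, no member passed, and without knockdown replicate 2 Sf3b3 alone did. Sf3b3 had adjusted p-values of 0.0500, 0.0548, 0.0687 and 0.0506 without knockdown replicate 1 and scrambled replicates 1, 2 and 3, and it passed with 0.0479, 0.00821, 0.0343 and 0.0283 on leaving out knockdown replicates 2, 3 and 4 and scrambled replicate 4. Sf3a3 passed without knockdown replicates 3 and 4 (0.0179 and 0.0444) and scrambled replicate 4 (0.0424), and had 0.0637 and 0.0507 without knockdown replicates 1 and 2 and 0.0606, 0.0880 and 0.0702 without scrambled replicates 1, 2 and 3. Sf3b3 thus kept its call in 4 of the 8 fits and Sf3a3 in 3 of the 8.

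Snrpg passed without knockdown replicate 3 (adjusted p = 0.00862) and scrambled replicate 4 (0.0379), and had 0.0637, 0.0575 and 0.0522 without knockdown replicates 1, 2 and 4 and 0.0675, 0.0785 and 0.0644 without scrambled replicates 1, 2 and 3. Snrpe passed without the same 2 libraries (0.0110 and 0.0379) and had 0.0908, 0.0834 and 0.0596 without knockdown replicates 1, 2 and 4 and 0.0736, 0.0972 and 0.0875 without scrambled replicates 1, 2 and 3. Snrpb2 kept its call in none of the 8 fits, with adjusted p-values from 0.0504 without knockdown replicate 3 to 0.0963 without scrambled replicate 2. The direction held for all 5 genes in all 8 fits, with log2 fold changes from -0.34 to -0.17.

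**Figure D5:**
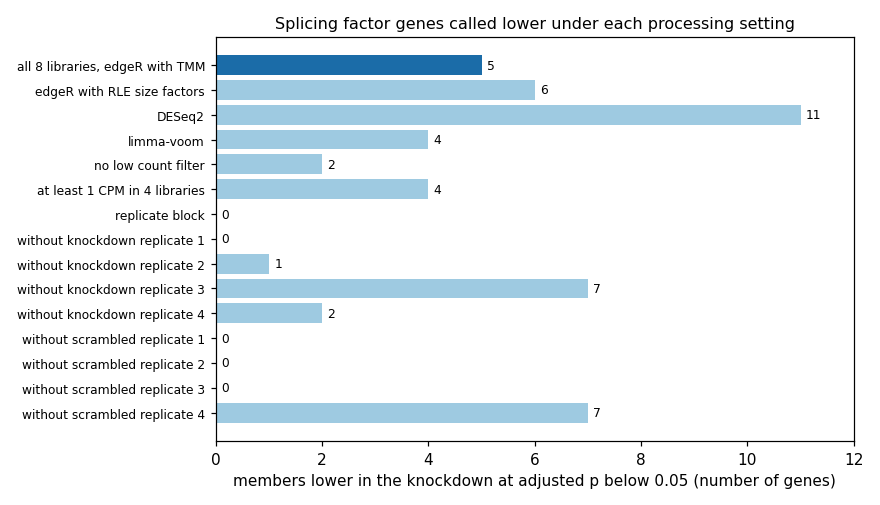
Number of members called lower in the knockdown at an adjusted p below 0.05 (x axis, from 0) with all 8 libraries (dark bar, 5 genes) and under each of 14 alternatives (light bars). The number ran from 0, for example without scrambled replicate 1, to 11 with DESeq2.

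The authors' deposited table gives a DESeq2 adjusted p for 56 of the members. Of these, 10 were lower at an adjusted p under 0.05 and 0 were higher. The shares were 9.43% and 11.9% of the genes with an adjusted p in that table. Of the 7574 abundant genes with an adjusted p there, 1242 were lower and 699 higher. In the authors' deposited table the values of the 5 genes called here were -0.28 for Snrpg, -0.23 for Snrpe, -0.18 for Snrpb2, -0.22 for Sf3b3 and -0.20 for Sf3a3, on the log2 scale. No member in the authors' deposited table passed the limit of 1 on the log2 scale that the study set for its candidates; the largest was 0.75 in size, for Snrpn.

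Outside the name pattern, 144 of 146 listed splicing genes were tested. Of these, 13 were lower (9.03%), beside 7.29% of all tested genes and 11.0% of the abundant ones, and 1 was higher (0.694%), beside 8.02% of all tested genes. The share called lower was thus near the background, and the median log2 fold change was -0.06, as over the members. Among 9 genes for catalytic steps 4 were lower, among 16 genes of the Prp19 complex and its relatives 2 were, and among 11 further U2 genes 2 were; these sublists were not tested against that background. The lists of U1 genes, minor spliceosome genes, LSm genes, exon junction genes and snRNP assembly genes, 7, 9, 8, 8 and 12 tested genes, had 0 called in either direction.

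Bclaf1, an SR-related nuclear protein, had 404, 314, 373 and 396 CPM in knockdown replicates 1 to 4, against 495, 485, 517 and 509 CPM in scrambled replicates 1 to 4. The groups were far apart (log2 fold change -0.43, SE 0.08, adjusted p = 0.0125). Crnkl1, a scaffold of the Prp19-related complex, had 90.0 ± 6.81 CPM in the knockdown and 114 ± 3.80 CPM in the scrambled group (log2 fold change -0.34, adjusted p = 0.0156). Both passed whichever of the 8 libraries was left out. Dhx8, the helicase that releases spliced mRNA, fell by 0.23 on the log2 scale (adjusted p = 0.0196), and Prpf18, a factor of the second catalytic step, fell by 0.30 (adjusted p = 0.0222). Prpf4b, a kinase of the spliceosome, and Prpf4, a protein of the U4/U6 particle, each fell by 0.24 (adjusted p = 0.0209 and 0.0287), and Rbm25, an alternative splicing regulator, fell by 0.19 (adjusted p = 0.0310). Dhx8 lost its call only without scrambled replicate 2 (0.0560). Prpf18 lost its call without knockdown replicate 1 (0.0516) and scrambled replicates 1 and 2 (0.0512 and 0.0613), and Prpf4b without knockdown replicate 1 (0.0522) and scrambled replicates 2 and 3 (0.0623 and 0.0553). Prpf4 lost it without knockdown replicate 2 (0.0676) and scrambled replicates 2 and 3 (0.0712 and 0.0554), and Rbm25 without knockdown replicates 1 and 2 or scrambled replicates 1, 2 and 3 (0.0666 to 0.0776). None of these 5 genes turned in direction.

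The gene called higher was Srpk3, a kinase of SR proteins known from muscle. It measured 0.685, 0.495, 0.444 and 0.675 CPM in knockdown replicates 1 to 4, against 0.0555, 0.154, 0.130 and 0.360 CPM in scrambled replicates 1 to 4. The groups did not overlap (log2 fold change 1.80, SE 0.46, adjusted p = 0.0348), on 97 reads over all libraries. Its call held without knockdown replicate 3 and without scrambled replicate 4, and was lost without any of the other 6 libraries, the adjusted p being highest (0.102) without scrambled replicate 2.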

How the data were processed

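The authors deposited raw, unnormalized counts of reads per gene, as whole numbers in 1 column per library. The table also holds the authors' mean signal per gene over scaled libraries, the authors' log2 fold changes with standard errors, the authors' Wald score and the authors' p-values. CASAVA 1.8 and DESeq2 1.18.1 were used, per the submitters' processing notes; the design text adds R 3.4.3, and biomaRt 2.34.2 for the symbols. With aligner, counter, strand setting, annotation and genome build not given in the sources used here, reads of overlapping genes on opposite strands cannot be told apart. Per the labels' protocols, 2 ribosomal RNA depletion kits were used; which library had which is not stated. The deposited mean signal and score were not printed.

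Each column was assigned to its sample through the number that ends the sample's description, which left 0 columns unassigned. Each library is 1 mouse. Of 47729 genes, 21471 had no counts and 285 no symbol, and no row lacked a gene identifier. All 57 members matched GENCODE M21 (GRCm38) by Ensembl identifier, 56 under the same symbol.

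The test was that of edgeR 4.0.16 (R 4.3.3): filterByExpr by group, TMM factors, robust quasi-likelihood fit with the group as the only term, two-sided F test, Benjamini-Hochberg adjustment over 13462 genes and a threshold of 0.05. The script was tested on simulated data. There edgeR called 3 of 49 genes with a 1.25-fold change in the right direction, and 12 of 49 with a 1.5-fold change. DESeq2 called 7 of 50 and 18 of 50 in the same order. False calls numbered 4 with edgeR, 40 with DESeq2 and 5 with limma-voom. CPM use the TMM-scaled library sizes and are given as mean ± SD over 4 libraries. Log2 fold changes are knockdown minus scrambled throughout. Alternatives were RLE size factors, DESeq2 1.42.0, limma-voom (limma 3.58.1), no filter, at least 1 CPM in 4 libraries, the replicate number as a block, and each library left out. Exon overlaps come from GENCODE M21 and copies from blastn 2.17.0, with at least 95% identity over at least 50% of the coding sequence and 150 bases. Promoters come from RefSeq.

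The text names members past the threshold, the 4 with the highest and the 4 with the lowest fitted change, the genes mutated in myeloid neoplasms, well-known members of each role, and the called splicing genes outside the pattern with the smallest p, at most 8 per direction. A few further members (among them Snrpa1, Snrpd2, Snrpf, Sf3b6, Hnrnpab and Hnrnph2) were named after their values were seen. Members and lists were chosen with earlier results of these data known.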

Additional observations from a re-analysis of the deposited data

Results flagged for a closer look

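A single library stood apart from the other 3 of its group in 5 of 82 groups of values examined by Dixon's test at the 95% level; chance alone flags about 1 group in 20. Snrpb2 had 102.9 CPM in scrambled replicate 4, against 96.64 to 96.77 CPM in the other 3 scrambled libraries. Srsf2 had 471.5 CPM in knockdown replicate 4, against 543.3 to 555.2 CPM in the other 3 knockdown libraries. Hnrnpa2b1 had 2132 CPM in scrambled replicate 4, against 2328 to 2345 CPM in the other 3 scrambled libraries. Fubp1 had 395.9 CPM in scrambled replicate 4, against 284.3 to 296.1 CPM in the other 3 scrambled libraries. The summed CPM of the snRNP genes was 1350 in knockdown replicate 4, against 1494 to 1513 in the other 3 knockdown libraries. Each of these values lies in a replicate numbered 4.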

How the results depend on the processing

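With DESeq2, 11 members were lower, without the low count filter 2, and with the replicate number as a block 0. Without 1 library, 0 to 7 members were lower and 0 to 1 higher. Of the other splicing genes, DESeq2 called 5 higher and 23 lower, the 1 CPM filter 0 higher, the replicate block 0 higher and 1 lower, and the fits without 1 library 0 to 3 higher and 2 to 19 lower. Over all tested genes DESeq2 called 2035 higher and 1553 lower, the replicate block 195 and 205, and the fits without 1 library 275 to 1956 and 251 to 1469. Fubp1 passed with DESeq2 (-0.39, adjusted p = 0.0145) and without the filter (-0.41, adjusted p = 0.0365). Of 489 gene values under alternatives, 20 turned sign, all of genes fitted near 0. Without the filter, Hnrnpa1 was at -0.0113, Srsf1 at -0.0128, Srsf5 at -0.0134 and Snrpa at -0.0099. Without 1 library, Hnrnpa1 ran from -0.0509 to 0.0854, Srsf1 from -0.0644 to 0.0557, Srsf5 from -0.0566 to 0.0998, Snrpa from -0.0359 to 0.0455 and Snrpc from -0.0955 to 0.0185. The cause of these shifts was not tested, save that a left-out library leaves fewer samples. Deviations of same-numbered libraries correlated at -0.42, 0.02, -0.56 and -0.22, and those of differently numbered libraries at -0.51 to 0.62. With 4 libraries per group, such values cannot show whether same-numbered libraries were paired. The block result, with 0 members lower, is therefore given as it stands. With 4 libraries per group the median SE over members was 0.0665 on the log2 scale, which limits what small changes can be shown.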
